A study of Mus musculus with 6 samples.

Results

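The genes that encode the subunits of the condensin complexes were examined in an E2F1 chromatin immunoprecipitation sequencing (ChIP-seq) experiment on mouse fibroblasts of the established line NIH/3T3. The set held 8 genes (Smc2, Smc4, Ncapd2, Ncapg, Ncaph, Ncapd3, Ncapg2 and Ncaph2) of 21887 protein-coding genes, and a peak was assigned to a gene when it lay inside the gene's GRCm38 span or within 1000 bp of it. One group of cells carried a stably integrated doxycycline-inducible E2F1 construct, and the control group carried an empty vector (EV) under the same induction, with 2 libraries per group. All cells of both groups were starved in 0.25% serum for 48 hours and then received doxycycline for 12 hours. The labels' protocol gives 500 ng/ml doxycycline, whereas the names of the peak lists carry the number 200 without a unit, so the dose is not settled here. Cells of both groups keep their own E2f1 gene, and the labels do not say whether a group is a clone or whether the replicates came from separate cultures. The peak lists hold no expression values, so neither the fibroblast identity nor the induction of E2F1 was checked here.

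Condensins are ring-shaped ATPase complexes that compact and disentangle chromosomes for mitosis. SMC2 and SMC4, the ATPase arms, are common to both complexes. Condensin I adds the kleisin NCAPH, which closes the ring, and the HEAT-repeat subunits NCAPD2 and NCAPG, whereas condensin II adds the kleisin NCAPH2 and the HEAT-repeat subunits NCAPD3 and NCAPG2. Condensin II is nuclear throughout the cell cycle and condensin I reaches chromosomes after the nuclear envelope breaks down. E2F1 is a transcription factor best known for activating genes of DNA replication and cell-cycle entry, and many mitotic genes are controlled later in the cycle through MYB-MuvB and FOXM1.

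All 8 condensin genes had a peak in each E2F1 library, and none had a peak in either EV library. Each E2F1 list held 9 condensin peaks, 1 at a boundary of every gene and a further weak one beyond the far end of Ncaph2. Among all protein-coding genes, 36.9% had a peak in E2F1 replicate 1 and 38.2% in replicate 2. In the EV lists the shares were 0.0366% (replicate 1) and 0.407% (replicate 2). The difference of 8 genes between groups had an exact two-sided permutation p of 0.333. No smaller value is possible with 2 libraries per group, and 0.05 is out of reach. The nearest EV peak to any condensin gene lay 352089 bp from Smc2, in EV replicate 2. The EV lists were short, with 70 peaks in replicate 1 and 358 in replicate 2, against 7836 and 8027 in the E2F1 lists.

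A gene without a listed peak is not a gene without signal, because the lists hold only peaks with a p-value below 1e-10. To see how many reads stood behind a peak, its pileup and local background were solved from the deposited fold enrichment and p-value. The lowest background of a list, taken as its genome-wide background, was 1.85 and 1.86 reads in E2F1 replicates 1 and 2 and 2.20 and 1.18 reads in the EV lists. At those levels a site needed a pileup of 17 reads in EV replicate 1 and 13 in EV replicate 2 to be listed, and more where the local background was higher. The boundary peaks of the condensin genes had pileups of 36 to 144 reads in the E2F1 libraries, above those lowest limits at every gene. The local background of the EV libraries at these genes is not known, so the limits there may be higher. Whether EV cells hold little E2F1 or their immunoprecipitation worked less well cannot be told apart.

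The 8 boundary peaks of E2F1 replicate 1 each overlapped the peak of the same gene in replicate 2, with 653 bp shared at Ncaph, the least, and 1889 bp at Smc4, the most. Summits of the replicates lay 74 bp (Ncaph) to 301 bp (Ncapd2) apart. Of 16 summits, 15 lay inside the annotated span of the condensin gene, and that of Ncapg2 in replicate 2 lay 79 bp outside it. All were within 416 bp of the gene boundary except those of Ncapd3, which lay 656 and 568 bp into the gene.

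**Figure D1:**
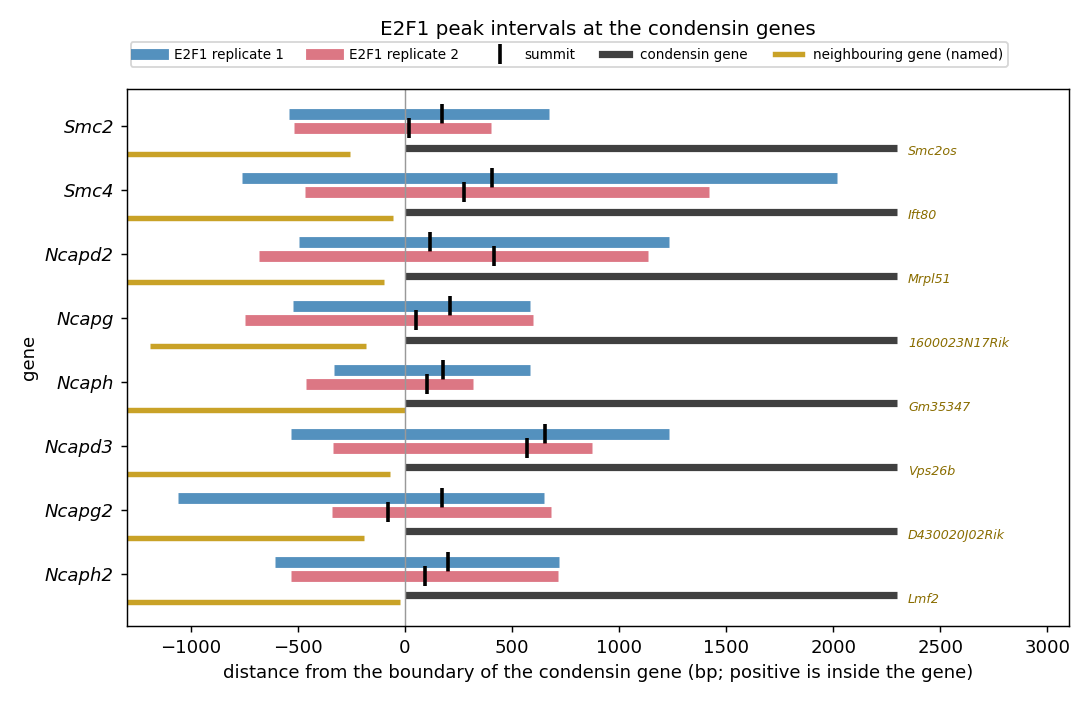
Peak intervals of both E2F1 libraries at each condensin gene, with distance from the gene boundary in bp on the horizontal axis (positive is inside the gene, whose bar is drawn only to the edge of the view) and 1 row per gene. All 8 pairs of intervals overlap and cross the boundary, and the nearest other gene (gold) lies within 257 bp of every condensin gene.

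Every peak at a condensin gene boundary also lay at a neighbouring gene, so the peak lists do not assign it to one of the pair. The distance between the condensin gene's boundary and the nearest boundary of another gene ranged from 1 bp (Ncaph and the non-coding RNA gene Gm35347) to 257 bp (Smc2 and Smc2os). The neighbour was protein-coding at 4 genes: Ift80, which encodes a subunit of the ciliary transport machinery, at Smc4, Mrpl51, a mitochondrial ribosomal protein gene, at Ncapd2, Vps26b, a retromer subunit gene, at Ncapd3 and Lmf2 at Ncaph2. At the other 4 genes it was a long non-coding RNA gene. In the 7 pairs whose strands were given, the condensin gene and its neighbour were on opposite strands. A boundary of another gene within 300 bp was present at 8 of 8 condensin genes, at 21.5% of all protein-coding genes and at 33.8% of those with a peak in both E2F1 libraries. This distance was chosen after the arrangement had been seen.

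At Ncapd2, which encodes a HEAT-repeat subunit of condensin I, the summits of the replicates lay farthest apart, and both fell between the starts of the pair. In E2F1 replicate 1 the summit lay 399 bp upstream of the Ncapd2 start and 215 bp upstream of the Mrpl51 start. In replicate 2 it lay 98 bp upstream of Ncapd2 and 516 bp upstream of Mrpl51. The remaining 6 genes with a given start had summits from 164 bp upstream (Ncapg2, replicate 2) to 656 bp downstream (Ncapd3, replicate 1) of it, and every one of these summits lay upstream of the neighbour's start.

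Promoter sequences of RefSeq, build GRCm38.p6, were matched for 7 of the 8 genes and not for Smc4. Each window runs from 250 bases before to 50 bases after a start, and 7 of the 8 windows matched (Ncapd3 has a second, distant one) were overlapped by peaks of both E2F1 libraries. An 8-letter E2F-like site (TTTCCCGC, TTTCGCGC, TTTGCCGC or TTTGGCGC, on either strand) occurred in 3 of these 7 windows, those of Ncapd2, Ncapg and Ncapg2. The same was true of 2.85% of 21263 windows of protein-coding genes and of 5.96% of the 6256 windows under peaks of both E2F1 libraries. The sites are shown here in 30 bases of context, with the 8 letters in capitals, since they are the matches found. The rest of each peak and the Smc4 peak were not searched.
Ncapd2, chr6:125191576-125191605, minus strand: ccatctcgttgTTTGGCGCgtatcctgccc
Ncapg, chr5:45669945-45669974, plus strand: tgtcggaagccGCGGGAAActgagtcctcc
Ncapg2, chr12:116405186-116405215, plus strand: gGCGGGAAAcacagccagcagctctgcgcc
Ncapg2, chr12:116405425-116405454, plus strand: ctggtccgagcGCGGGAAActatgggtctg

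The Ncapg site begins at base 32 of the transcript, counted from 1 at the start, and its centre lay 144 bp from the summit of replicate 1 and 18 bp from that of replicate 2. At Ncapd2 the site begins 8 bases before the start and lay 394 and 94 bp from the summits. Ncapg2 has a pair of sites. The one nearer to the summit of replicate 2 was 82 bp from it, and the one nearer to the summit of replicate 1 was 86 bp from it. A match is a description of letters and not a measured binding site.

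The cell cycle genes homology region (CHR), a short element bound by MuvB complexes in many promoters of mitotic genes, was searched as TTTGAA or TTCGAA on either strand, a search chosen after the sequences had been seen. It occurred in 5 of the 7 condensin windows under the peaks, at Smc2, Ncapd2, Ncapg, Ncapg2 and Ncaph2, against 17.6% of all windows of protein-coding genes and 11.4% of those under peaks of both E2F1 libraries. The 8-letter E2F-like site stood in only 2.85% of all windows, since longer letters match less often, so the counts of these elements are not compared. The CHR matches found under the peaks are in capitals in the following 30-base stretches.
Smc2, chr4:52439064-52439093, plus strand: tcgctttccatgTTCAAAacggtatagtct
Smc2, chr4:52439235-52439264, plus strand: ctcgcgccgaaaTTCAAAggaacagttccg
Ncapd2, chr6:125191692-125191721, minus strand: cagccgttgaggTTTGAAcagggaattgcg
Ncapg, chr5:45669883-45669912, plus strand: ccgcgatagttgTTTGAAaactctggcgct
Ncapg2, chr12:116405406-116405435, plus strand: tacgcgggtgtgTTTGAAtctggtccgagc
Ncaph2, chr15:89355685-89355714, plus strand: cttctttacttcTTCGAAactgggcccgcc

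At Ncapg, Ncapg2 and Ncaph2 the CHR letters begin 30, 18 and 22 bases before the start. They begin farther upstream at Ncapd2, 123 bases before the start, and at Smc2 they begin 145 bases before it and again at base 27 of the transcript. The windows of Ncaph and of Ncapd3 at its peak held neither the 8-letter E2F-like site nor the CHR letters. The summits of Ncapd3, 656 and 568 bp downstream of the start, lay outside the window searched, as did those of Ncaph. The shorter core GGCGC or GCGGGA was present in 7 of 7 condensin windows, but also in 53.1% of all windows and 89.1% of those under peaks of both E2F1 libraries. Ncaph, the gene with the highest fold of the set in replicate 2, had its summits 176 and 102 bp downstream of the start. The core nearest to them begins at base 44 of the transcript and is not shown. The stretch upstream of Ncaph, which does not hold the summits, is given with the core letters in capitals.
Ncaph, chr2:127133955-127134204, minus strand: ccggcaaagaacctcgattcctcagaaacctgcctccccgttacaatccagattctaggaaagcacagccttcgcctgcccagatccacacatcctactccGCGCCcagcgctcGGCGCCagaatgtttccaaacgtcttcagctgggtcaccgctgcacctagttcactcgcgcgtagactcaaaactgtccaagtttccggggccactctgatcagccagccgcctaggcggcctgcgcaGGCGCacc

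Fold enrichments, scores and p-values of peaks are those the authors deposited, and ranks are by fold within a list. Over the strongest peak of each gene, condensin genes had a median fold of 15.8 in E2F1 replicate 1 and 18.9 in replicate 2, where all protein-coding genes with a peak in both libraries had medians of 10.2 and 13.1. The condensin peaks stood at a median percentile of 80.2 of their list in replicate 1 and 74.2 in replicate 2 (77.2 ± 4.26, SD, n = 2). The same median over all protein-coding genes with a peak in the list was 54.0 and 53.2. In each library 7 of the 8 genes exceeded the median fold of genes with a peak, and the exception was Ncapg.

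**Figure D2:**
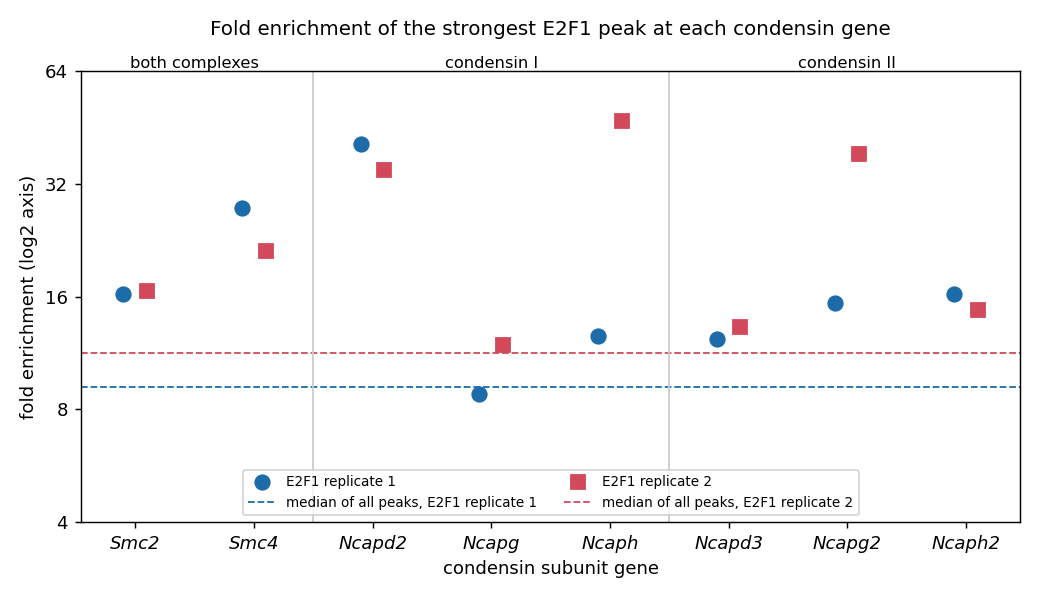
Fold enrichment (vertical, log2 axis) of the strongest peak at each condensin gene in both E2F1 libraries, with dashed lines at the median of all peaks of a list (9.19 and 11.3). Ncaph and Ncapg2 show the widest gaps between replicates, while the folds of Smc2 lie at 16.3 and 16.6.

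Of the subunits common to both complexes, Smc2 had a peak with a fold of 16.3 in E2F1 replicate 1 (rank 1449 of 7836) and 16.6 in replicate 2 (rank 2505 of 8027), on chromosome 4 from 52438679 to 52439896 and from 52438701 to 52439624. Smc4 had folds of 27.7 (rank 351) and 21.1 (rank 1637), on chromosome 3 from 69003978 to 69006758 and from 69004269 to 69006157. The folds of Smc4 were above those of Smc2 in each library, with ranges that did not overlap. At 2781 and 1889 bp the Smc4 peaks were also the widest of the set. The Smc4 gene hosts the microRNA genes Mir15b and Mir16-2, which lay beyond the peak.

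By fold, condensin I held both the strongest and the weakest genes of the set. By pileup the lowest gene in both libraries was Ncapd3 of condensin II. Ncapd2 had folds of 41.0 in replicate 1, rank 80 of its list, and 34.9 in replicate 2, rank 567, in peaks on chromosome 6 from 125190865 to 125192594 and from 125190965 to 125192784. Its mean fold, 37.9 ± 4.31 (SD, n = 2), was the highest of the 8 genes. Ncaph, the kleisin gene, had folds of 12.6 (rank 2386) and 47.2 (rank 236), in peaks on chromosome 2 from 127133369 to 127134287 and from 127133635 to 127134414. Ncapg, the other HEAT-repeat gene, had folds of 8.77 (rank 4191) and 11.9 (rank 3843), in peaks on chromosome 5 from 45669369 to 45670476 and from 45669142 to 45670490. Its fold was the lowest of the boundary peaks in both libraries, and it stood near the middle of each list.

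Condensin II genes were closer together in replicate 1 than in replicate 2. Ncapg2 had folds of 15.4 (rank 1639) and 38.5 (rank 450), in peaks on chromosome 12 from 116404293 to 116406001 and from 116405009 to 116406032. Ncaph2, the kleisin gene, had folds of 16.3 (rank 1457) and 14.8 (rank 2933), in peaks on chromosome 15 from 89355111 to 89356437 and from 89355185 to 89356432. Ncapd3 had folds of 12.3 (rank 2472) and 13.3 (rank 3358), in peaks on chromosome 9 from 27029632 to 27031397 and from 27029827 to 27031040. The fold in replicate 2 was 0.908 times that in replicate 1 at Ncaph2, 1.08 times at Ncapd3 and 2.49 times at Ncapg2.

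By mean fold the order was Ncapd2, Ncaph (29.9 ± 24.5), Ncapg2 (27.0 ± 16.3), Smc4 (24.4 ± 4.61), Smc2 (16.4 ± 0.214), Ncaph2 (15.5 ± 1.05), Ncapd3 (12.8 ± 0.670) and Ncapg (10.3 ± 2.18), each with SD and n = 2. Among the first 4, the folds of neighbours in that order overlapped. Smc4 and Smc2, Smc2 and Ncaph2, Ncaph2 and Ncapd3, and Ncapd3 and Ncapg had folds that did not overlap, although the lower Smc2 fold and the higher Ncaph2 fold both round to 16.3. With 2 libraries these orders are descriptions without a test.

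The comparison of the complexes by median fold changed sign between the libraries. The median log2 fold of the 3 genes particular to condensin I minus that of the 3 particular to condensin II was -0.29 in replicate 1 and 1.24 in replicate 2, with a mean of 0.47 ± 1.08 (SD, n = 2). In replicate 1 the condensin II folds, 12.3 to 16.3, fell inside the condensin I range of 8.77 to 41.0. In replicate 2 the ranges were 11.9 to 47.2 for condensin I and 13.3 to 38.5 for condensin II. By median the difference was therefore within the spread between replicates. By mean log2 fold in place of the median it was 0.18 in replicate 1 and 0.46 in replicate 2 (0.32 ± 0.19, SD, n = 2), positive in both libraries. The sign in replicate 1 thus depends on the summary used, and there only Ncapd2 of condensin I lay above the condensin II range. By median percentile of fold within the list, the difference was -9.48 points in replicate 1 and 29.5 points in replicate 2. With 2 libraries none of these values was tested. Median widths differed by -601 bp in replicate 1 and by 135 bp in replicate 2 in the same direction of subtraction, again with no common sign.

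At Ncaph and Ncapg2, the genes whose folds differed most between libraries, the pileups were closer than the folds. At Ncaph the summit held 99 reads in replicate 1 and 134 in replicate 2, a ratio of 1.35, whereas the local background was 6.94 and 1.86 reads and the fold ratio was 3.75. At Ncapg2 the pileups were 68 and 109 reads, a ratio of 1.60, with backgrounds of 3.47 and 1.86 reads. Both genes had the genome-wide background as local background in replicate 2. Among 7537 genes with a peak in both libraries the fold ratio of replicate 2 to replicate 1 had a median of 1.26, with 0.635 and 2.67 at its 5% and 95% points. The fold ratio of Ncaph stood at percentile 99.2 of these genes and its pileup ratio at percentile 85.6. For Ncapg2 the percentiles were 93.2 and 94.2.

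**Figure D3:**
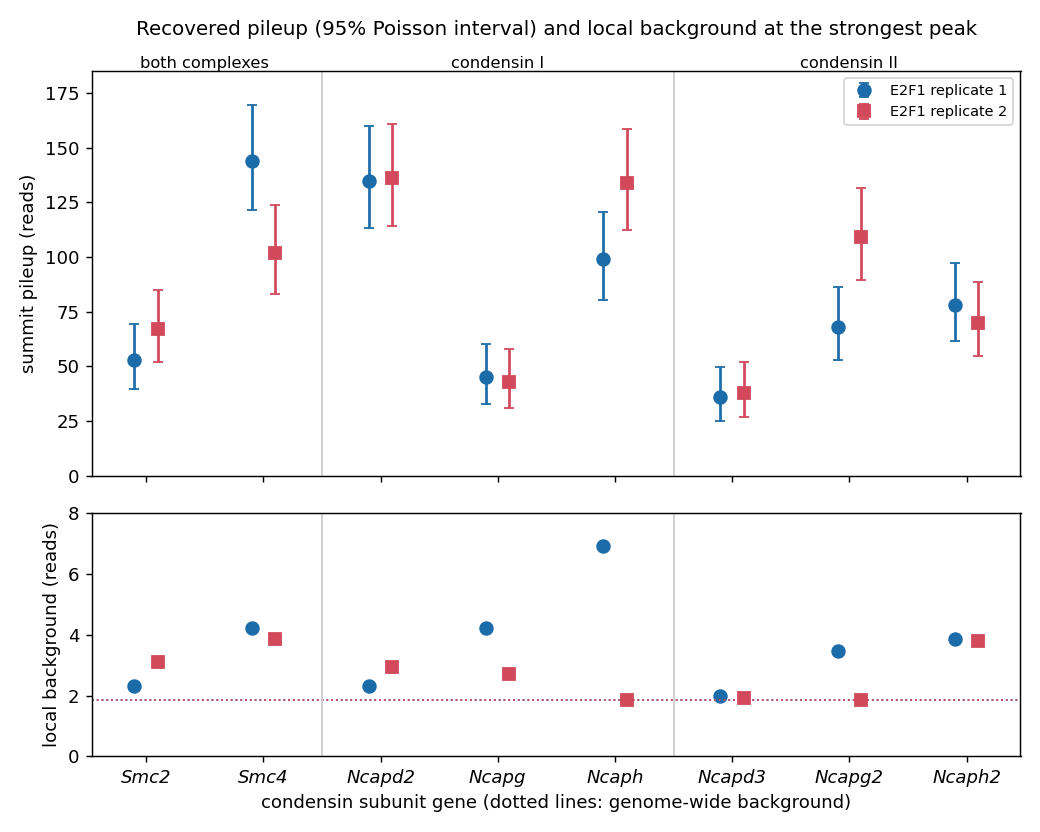
Summit pileup in reads with 95% Poisson intervals (upper panel) and local background in reads (lower panel, dotted lines at the genome-wide background) at the strongest peak of each condensin gene in both E2F1 libraries. The intervals of the replicates overlap at 7 of 8 genes, the exception being Ncapg2, and the backgrounds of Ncaph lie at 6.94 and 1.86 reads.

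Pileups at the other genes were 144 and 102 reads at Smc4, 135 and 136 at Ncapd2, 78 and 70 at Ncaph2, 53 and 67 at Smc2, 45 and 43 at Ncapg and 36 and 38 at Ncapd3, in replicates 1 and 2. The exact 95% Poisson intervals of the replicates overlapped at 7 of the 8 genes, and at Ncapg2 they ran from 52.8 to 86.2 and from 89.5 to 131 reads. These intervals cover counting error only. Over all genes with a peak in both libraries the median pileup was 52 reads in each. Ncapg and Ncapd3 were below it in both libraries and the other 6 genes above it. On this measure the median of condensin I exceeded that of condensin II by 0.54 on the log2 scale in replicate 1 and by 0.94 in replicate 2, a mean of 0.74 ± 0.28 (SD, n = 2), given without a test. The ranges overlapped, at 45 to 135 reads for condensin I and 36 to 78 for condensin II in replicate 1. In replicate 2 they were 43 to 136 and 38 to 109 reads. The part of the local background in the differences of fold was not tested.

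Condensin peaks were broad for their lists. The strongest peaks of all genes with a peak in both libraries had median widths of 1012 bp in replicate 1 and 889 bp in replicate 2, and 7 of 8 condensin peaks were wider in each. The exception was Ncaph in both libraries, at 919 and 780 bp. The other widths ran from 1108 bp (Ncapg) to 2781 bp (Smc4) in replicate 1 and from 924 bp (Smc2) to 1889 bp (Smc4) in replicate 2.

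The additional peak assigned to Ncaph2 lay on chromosome 15, from 89373594 to 89374125 in replicate 1 and from 89373578 to 89374187 in replicate 2. Its near edge was 744 and 728 bp beyond the Ncaph2 span, and its summits lay 104 and 133 bp from Sco2, a gene for assembly of cytochrome c oxidase, inside the span of Tymp, which encodes thymidine phosphorylase. The folds were 4.07 (rank 7734 of 7836) and 7.78 (rank 5736 of 8027), far below those of the boundary peak of Ncaph2. The nearest peaks that the distance rule left out lay 1795 bp from the Ncapd2 span in replicate 1 and 1948 bp in replicate 2, with folds of 7.996 and 4.92.

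Genes of related complexes were read beside the condensin genes as a description. All 13 cohesin genes, all 6 genes of the SMC5/6 complex and all 12 genes of mitotic chromosome partners had a peak in both E2F1 libraries, as 34.4% of protein-coding genes did. Wapl, which encodes a factor that releases cohesin, also had a peak in an EV library, and is named here after its value was seen. Median folds were 13.6 and 21.7 for cohesin, 16.9 and 24.3 for SMC5/6 and 19.2 and 19.3 for the partners in replicates 1 and 2, against 15.8 and 18.9 for condensin. The highest means of the lists were those of Pds5a, a cohesin regulator, at 85.9 ± 26.0, Smc6, at 41.2 ± 16.6, and Mki67, which encodes the mitotic chromosome surface protein Ki-67, at 46.4 ± 2.87. The lowest were those of Mau2, a cohesin loader subunit, at 5.98 ± 0.936, Nsmce3 at 11.8 ± 0.835 and Plk1, a mitotic kinase gene, at 9.59 ± 3.44 (each SD, n = 2). Condensin folds fell inside the range of the cohesin genes in both libraries.

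**Figure D4:**
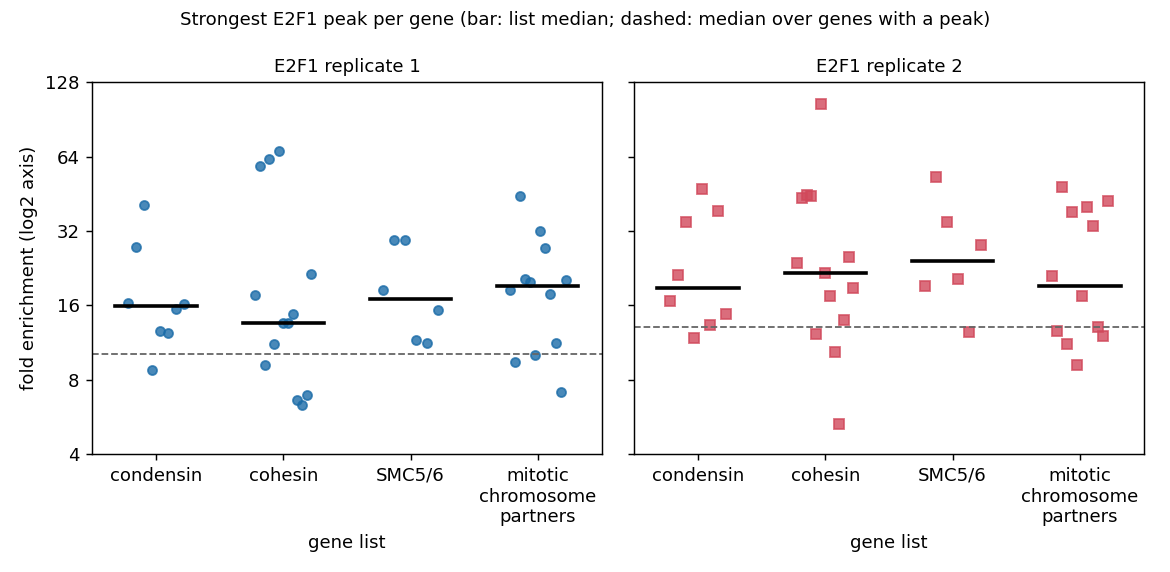
Fold enrichment (vertical, log2 axis) of the strongest peak of every gene in the condensin, cohesin, SMC5/6 and mitotic partner lists, in E2F1 replicate 1 (left) and replicate 2 (right). Bars are list medians and the dashed lines, at 10.2 and 13.1, are the medians over genes with a peak in both libraries. The condensin points lie between 8.77 and 41.0 on the left and between 11.9 and 47.2 on the right.

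The genes whose pair of folds lay nearest to the condensin median, over the 2 E2F1 libraries, were Nup155, a nucleoporin gene, Ncl, which encodes nucleolin, and Nfix, a transcription factor gene. Nup155 had folds of 16.1 and 18.8, Ncl 15.99 and 19.0 and Nfix 16.2 and 18.8. The median was taken over log2 folds, which gives 15.84 and 18.73 in place of the medians of the folds themselves. Distances from it were 0.025, 0.026 and 0.033 on the log2 scale.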

How the data were processed

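Each of the 4 libraries has its own peak list, in the 10-column narrowPeak layout. FastQC, Trimmomatic, Bowtie2, MACS2 and ChIPseeker and the build mm10 are named in the submitters' processing notes. Their settings, the antibody and the control of each list are not given in the sources used here, and the protocols in the labels describe RNA. The deposited score is 10 times the −log10 q-value, rounded down in nearly all rows. Fold enrichment, as deposited, is the ratio between summit pileup and local background. The p-value and the q-value of each peak were deposited as −log10. The 2 input samples have no file used here.

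Pileup and background were solved from fold, taken as pileup plus 1 over background plus 1, and the Poisson p-value. A whole pileup within 5% of the step to the next was found for 95.7% to 99.99% of the peaks of a list, and the solution was checked on simulated data. No library totals were used, and the genome-wide background stands for depth. Gene spans are those of RefSeq GRCm38.p6 on the assembled chromosomes, without exons. Peaks were counted as shared from 1 bp of overlap. Sample titles gave the group and the replicate number. Replicates may be technical. The permutation p-value is the lowest that 2 libraries per group allow, and it does not measure the spread between libraries or cultures.

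The named genes are all 8 members, the genes beside their peaks, the highest and lowest mean fold of each list of related genes, list genes with no peak (there were none) and the 3 genes nearest in fold. The members and lists were chosen with earlier results of these data known. Analyses used Python 3.11.15, pandas 2.3.3 and scipy 1.17.1. Alternatives covered the distance rule, score thresholds, overlap, the measure of strength, the motif letters and leaving out each library.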

Additional observations from a re-analysis of the deposited data

How the results depend on the processing

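Of 24 alternatives over 5 results, 22 kept their direction and stayed within the spread or within 1.5 times. Percentile of fold, on another scale, was among them and was compared by direction only. For results with an SD over the 2 E2F1 libraries, leaving out either library always stays within that SD. There it could differ only by a change of sign. The difference of 8 condensin genes between E2F1 and EV was the same at distances of 0, 2500 and 5000 bp and without any one library (8 to 8). Of these settings only the distance of 0 bp could have changed it. All 8 genes already had E2F1 peaks and the nearest EV peak lay 352089 bp away, so wider distances could add nothing. Equal counts within each group also fixed the values without a library and in the replicate block. These fixed outcomes are among the 22. It was 7 at or above the median score of all E2F1 peaks, where Ncapg and Ncapd3 were lost in replicate 1, and 6.5 at or above each list's own median. The replicate block gave 8 (exact sign-flip test over the 2 pairs, p = 0.5, its lowest possible value), and with 1 value per library the numbers cannot show whether they pair the samples. Shared condensin peaks numbered 9 of 9 with reciprocal overlap of 50% and 7 of 9 with summits within 200 bp. The log2 fold of condensin I minus condensin II reversed to -0.29 without E2F1 replicate 2 and was 1.24 without E2F1 replicate 1 (-0.29 to 1.24), and by mean in place of median it was 0.32. The cause was not tested. With the core GGCGC or GCGGGA, 7 condensin windows held a match in place of 3, since shorter letters match more often. The list filter at 1e-10 limits all counts to strong sites, and EV replicate 2 had the lowest background.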

Other observations

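The promoter windows of the condensin genes under the peaks had GC contents from 52.7% (Smc2) to 69.3% (Ncapd3), where the median over 21263 windows of protein-coding genes was 56.3%. Their ratio of observed to expected CpG ran from 0.772 (Ncapg) to 1.02 (Ncaph), above the median of 0.567 over all windows at each of the 7 genes. Medians of GC and CpG over windows under peaks of both E2F1 libraries were not computed. Neither value can therefore be called particular to the condensin genes among genes with a peak. The CCAAT box, the element bound by NF-Y, was found on either strand in 3 of the 7 windows, those of Smc2, Ncapd2 and Ncapg, against 38.2% of all windows and 36.7% of those under peaks of both E2F1 libraries. Ncapd2, the gene with the highest mean fold of the set, had 3 copies, all on the strand opposite to the gene. These searches were chosen after the sequences had been seen.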
